A study of Morone chrysops with 54 samples.

Results

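3 enzymes of central carbon metabolism were followed in the liver of juvenile white bass (Morone chrysops): decarboxylating 6-phosphogluconate dehydrogenase (contig GAZY01154170.1), the cytoplasmic malate dehydrogenase isoform X1 (GAZY01129009.1) and inositol-3-phosphate synthase 1 (GAZY01152729.1). They are 3 of the 20914 contigs of the white bass transcriptome to which the reads were assigned, and were taken by contig identifier. They were selected on measured values of these same libraries, since the study's test of expression against the control diet lists each of them as changed: 6-phosphogluconate dehydrogenase for Diet 4, malate dehydrogenase for Diet 6, and inositol-3-phosphate synthase 1 for Diets 2, 4, 5 and 6. Those contrasts are therefore given below as descriptions, with no test. Fish that weighed about 40 g at the start received 1 of 6 diets for 60 days, in 3 tanks per diet with 3 fish sampled from each, and 1 RNA sequencing library was made from each liver. Diet 1 was the control with standard fish meal, Diet 2 had less fish meal and much soy, Diet 3 had less fish meal together with poultry meal, and Diet 4 had poultry meal and no fish meal. Diet 5 held plant protein only, and Diet 6 tested a commercial ingredient (Pro-Cision) with soybean meal. Diets were given to tanks, not to single fish, and p-values here measure the spread between fish.

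6-phosphogluconate dehydrogenase carries out the step of the oxidative pentose phosphate pathway in which 6-phosphogluconate loses a carbon as CO2 and NADP+ is reduced to NADPH. NADPH made in this way serves fatty acid and sterol synthesis and the reduction of glutathione, and the liver is a main site of both. Cytoplasmic malate dehydrogenase interconverts malate and oxaloacetate with NAD(H). It takes part in the malate-aspartate shuttle, and it is a step of gluconeogenesis from amino acids when carbon leaves the mitochondrion as malate. Inositol-3-phosphate synthase turns glucose 6-phosphate into inositol 3-phosphate, the only route by which animal cells make inositol anew, and so draws on the same substrate as the pentose phosphate pathway.

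Libraries of 53 fish held between 5964761 and 17336918 counts, with a median of 11378553. The remaining library, Diet 5 replicate 7, held 755 counts and none on the 3 enzymes, and was left out, so that Diet 5 has 8 fish and the other diets 9. The lowest count of any enzyme in the 53 libraries was 665, so that counting error is small beside the differences between fish. Levels are given as CPM, the count relative to the TMM-scaled total of its library, and can be compared between fish for 1 contig but not between contigs, whose lengths are not given in the sources used here. Diet 1 replicate 7 stood apart from the other fish of its diet, since without it the number of contigs called against Diet 1 went from 601 to 1094, and values that rest on it are given with and without it. The 7 markers of the exocrine pancreas, which lies within the liver of many fish, had a summed median of 113558 CPM with Diet 1 and between 22454 and 56114 CPM with the test diets. The summed level of 6 liver markers had a median of 23169 CPM with Diet 6, 30976 with Diet 5 and between 39711 and 45491 with the other diets. The summed level of 5 leukocyte markers had a median of 61.1 CPM with Diet 5 and between 35.8 and 44.1 with the other diets. Of these 5 markers, 2 were called higher with Diet 5 against Diets 1, 3 and 4, where 2.53%, 2.14% and 0.974% of all contigs were. The cell type markers carry names from the study's lists of contigs changed in these same fish, so their calls are no independent evidence. The part of these markers in the differences of Diet 5 was not tested. Fewer cells of a type and less RNA per cell cannot be told apart in such bulk samples.

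The level of 6-phosphogluconate dehydrogenase was lowest in fish on the fish meal control and highest in fish on Diets 5 and 6, with wide spread within each diet. With Diet 1 the lowest fish had 116 CPM, the median was 223 and the highest, replicate 7, had 1593. The remaining 8 fish of that diet did not pass 292 CPM. With Diet 2 the values were 189, 356 and 1064 CPM (lowest, median and highest of 9 fish). With Diet 3 they were 223, 347 and 603 CPM, the narrowest range of any diet for this enzyme. With Diet 4 they were 207, 436 and 1398 CPM, where the second highest fish had 537. The high ends of Diets 2 and 4 are thus single fish. With Diet 5 the 8 fish had 337, 587 and 1641 CPM. With Diet 6 the 9 fish had 346, 640 and 2635 CPM, where the second highest fish had 933. Every fish on Diets 5 and 6 lay above the 292 CPM that 8 of the 9 control fish stayed under, but replicate 7 of Diet 1 lay within their range, so that the groups overlapped. The mean ± SD was 367 ± 463 CPM with Diet 1 (n = 9; 214 ± 61.5 without replicate 7, n = 8), 732 ± 437 with Diet 5 (n = 8) and 824 ± 707 with Diet 6 (n = 9).

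Malate dehydrogenase ran the other way: it was highest with the control and lowest with Diet 6, and varied much less between fish. With Diet 1 the lowest, median and highest fish had 480, 673 and 844 CPM. With Diet 2 they had 325, 403 and 604 CPM. With Diet 3 they had 419, 513 and 1137 CPM. The highest fish of Diet 3, replicate 1, was the highest of the series and was followed by replicate 2 of the same diet at 786 CPM. With Diet 4 the values were 219, 507 and 700 CPM, and with Diet 5 they were 293, 445 and 578 CPM. With Diet 6 they were 204, 279 and 411 CPM. All 9 fish on Diet 6 lay below all 9 on Diet 1, the contrast for which this enzyme was picked, and below all 9 on Diet 3. The share of all contigs that separate in this way was not counted. Diet 6 overlapped with Diets 2, 4 and 5. The mean ± SD was 669 ± 109 CPM with Diet 1, 594 ± 233 with Diet 3 and 297 ± 72.6 with Diet 6 (n = 9 each).

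Inositol-3-phosphate synthase 1 was low and even in control fish and uneven in every other diet. With Diet 1 the values were 80.2, 116 and 172 CPM (lowest, median and highest of 9 fish), a coefficient of variation of 21.2%. With Diet 2 they were 94.8, 173 and 510 CPM, and with Diet 3 they were 93.6, 170 and 1290 CPM. In Diet 3 the high values came from replicates 1 and 2, at 1290 and 753 CPM, while the other 7 fish of the diet lay far below them, down to 93.6 CPM. With Diet 4 the values were 119, 192 and 615 CPM. With Diet 5 the 8 fish had 171, 314 and 2906 CPM, and with Diet 6 the 9 fish had 136, 148 and 638 CPM. The highest fish of Diet 5, replicate 3, exceeded the next, at 535 CPM, by more than the whole range of the others. The coefficient of variation was between 64.8% and 145% with the test diets, and this difference in spread was not tested. Of the 8 fish on Diet 5, 7 lay above every control fish, in a contrast for which this enzyme was picked. The share of all contigs that separate to this extent was not counted. Since Diets 2, 4, 5 and 6 against Diet 1 served to pick it, its low and even level in control fish is no independent evidence.

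**Figure D1:**
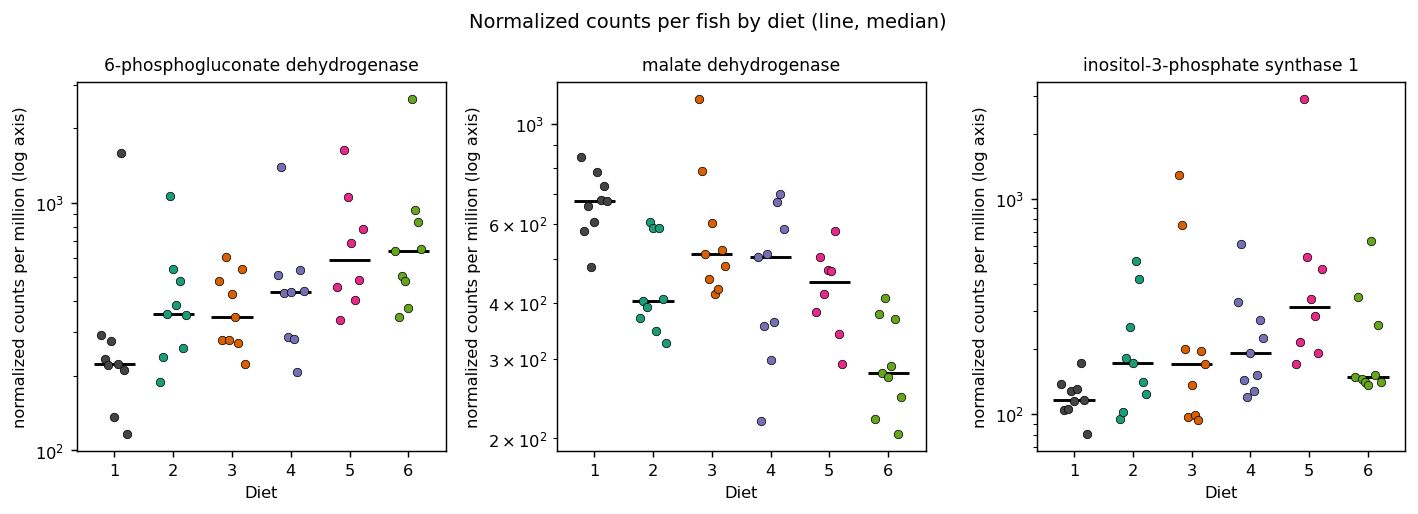
CPM (log axis) of 6-phosphogluconate dehydrogenase, malate dehydrogenase and inositol-3-phosphate synthase 1 in each fish (points) by diet, with the median of each diet as a line (9 fish per diet, 8 for Diet 5). All Diet 6 fish lie at or below 411 CPM for malate dehydrogenase, under the lowest Diet 1 fish at 480, in the contrast for which it was picked. Single fish stand far above their diet for the other enzymes.

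Against Diet 1, the contrasts for which the enzymes were picked had these log2 fold changes ± SE, positive where the test diet was higher. 6-phosphogluconate dehydrogenase had 0.46 ± 0.46 with Diet 4, 1.24 ± 0.30 without Diet 1 replicate 7 and 0.09 ± 0.43 without Diet 4 replicate 2. Malate dehydrogenase had -1.20 ± 0.15 with Diet 6. Inositol-3-phosphate synthase 1 had 0.89 ± 0.28 with Diet 2 and 1.01 ± 0.27 with Diet 4. For Diet 6 the value was 0.92 ± 0.27, and for Diet 5 it was 2.38 ± 0.47. Without Diet 5 replicate 3 its value with that diet was 1.38 ± 0.22. In the tests that follow a call needs an adjusted p under 0.05 by the quasi-likelihood test of edgeR and a change of more than 1.5-fold. Of all contigs, 0.0438% were called with Diet 2 and 0.00% with Diets 3 and 4. Diet 5 had 5.20% and Diet 6 had 1.14%. 485 of 9333 contigs were called with Diet 5, so a call there is more common than with the other diets.

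The contrasts with Diet 1 that did not serve to pick an enzyme share their control fish with those that did. Their p-values thus lean toward a call in the same direction and are no independent evidence of a difference from the control. In these contrasts malate dehydrogenase was lower with the all-plant Diet 5, by -0.64 ± 0.14 on the log2 scale (edgeR adjusted p = 0.00999), and was called. 6 of the 8 Diet 5 fish lay below the lowest Diet 1 fish at 480 CPM. This call was lost with library totals (-0.55 ± 0.13, under 1.5-fold), with counts summed per T tag (-0.65 ± 0.15, edgeR adjusted p = 0.0557) and without Diet 5 replicate 9 (-0.57 ± 0.13, under 1.5-fold). For Diets 2, 3 and 4 the values of this enzyme were -0.57 ± 0.14, -0.18 ± 0.18 and -0.51 ± 0.19, and edgeR gave adjusted p of 0.138, 0.998 and 0.449. 6-phosphogluconate dehydrogenase was called in none of its 4 contrasts by edgeR, with an unadjusted p under 0.05 in 2 of them and no call by DESeq2. It stood at 0.97 ± 0.46 for Diet 5 (edgeR adjusted p = 0.203) and at 1.13 ± 0.48 for Diet 6 (edgeR adjusted p = 0.251). Without Diet 1 replicate 7 they became 1.75 ± 0.29 (edgeR adjusted p = 0.000758) and 1.91 ± 0.35 (edgeR adjusted p = 0.00529), and both were called. The value of that fish was the extreme of Diet 1 for this enzyme (1593 CPM, next fish 292). Leaving it out narrows the spread of the control and so favours a call. Calls of all contigs against Diet 1 rose as well, from 601 to 1094. With every fish kept, Diet 5 was also called by limma's voom with the T tag as a block (1.30 ± 0.37, limma adjusted p = 0.0287) and Diet 6 by edgeR with library totals (1.54 ± 0.51, adjusted p = 0.0249). Without that fish the values with Diets 2 and 3 were 1.03 ± 0.29 and 0.83 ± 0.21, with edgeR adjusted p of 0.0966 and 0.329. Inositol-3-phosphate synthase 1 with Diet 3 had 1.48 ± 0.46, and its edgeR adjusted p was 0.927. Without Diet 3 replicate 1 this value was 0.84 ± 0.34.

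The 10 pairs of test diets compare the enzymes among diets that replace fish meal in different ways. No control fish enters them, but their fish are those of the contrasts that picked the enzymes. Malate dehydrogenase was picked for Diet 6, where it was low, so its p-values in pairs with Diet 6 lean toward a call. They are no independent evidence of a low level with that diet. Malate dehydrogenase was called in 2 of the 10 pairs, both with Diet 6 as the lower group. It was lower with Diet 6 than with Diet 3 by -1.02 ± 0.19 on the log2 scale (edgeR adjusted p = 0.0260), where 0.493% of all contigs were called. It was lower with Diet 6 than with Diet 2 by -0.61 ± 0.16 (edgeR adjusted p = 0.0458), where 2.00% of all contigs were called. Against Diet 4 it had -0.67 ± 0.20 (edgeR adjusted p = 0.235) and against Diet 5 it had -0.56 ± 0.16 (edgeR adjusted p = 0.0637), neither of them called, where 0.211% and 2.60% of all contigs were. The difference from Diet 5 was called without Diet 5 replicate 9, Diet 6 replicate 4 or Diet 6 replicate 7, with edgeR adjusted p between 0.0336 and 0.0440. The 6 pairs without Diet 6 gave log2 values between -0.45 and 0.40 with no call, where between 0.00% (Diet 4 against Diet 3) and 4.05% (Diet 5 against Diet 3) of all contigs were called, with 0.0430% for Diet 3 and 0.0214% for Diet 4 against Diet 2. The call against Diet 2 lay close to the threshold and was lost in 12 of 18 fits that each left out 1 fish, while that against Diet 3 was lost in 5 of 18, and both were lost when counts were summed per group of 3 fish with the same T tag.

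6-phosphogluconate dehydrogenase was called in 0 of the 10 pairs by edgeR, with an unadjusted p under 0.05 in 4 of them, and in 2 by DESeq2. The largest differences were those from Diet 3: 1.08 ± 0.33 for Diet 6 (edgeR adjusted p = 0.136) and 0.93 ± 0.28 for Diet 5 (edgeR adjusted p = 0.0503). In these pairs edgeR called 0.493% and 4.05% of all contigs. DESeq2 called both, at adjusted p of 0.0231 and 0.0110, but over the 10 pairs it also called more of all contigs than edgeR. Without Diet 6 replicate 6 the differences of Diet 6 from Diets 3 and 2 were 0.63 ± 0.23 and 0.46 ± 0.30 (edgeR adjusted p = 0.217 and 0.530). From Diet 2 the enzyme differed by 0.91 ± 0.37 with Diet 6 (edgeR adjusted p = 0.238) and by 0.77 ± 0.34 with Diet 5 (edgeR adjusted p = 0.245). Of all contigs, 2.00% and 1.37% were called in these pairs. Diets 5 and 6 differed by 0.15 ± 0.38 (edgeR adjusted p = 0.911), where 2.60% of all contigs were called. In the order of the medians (Diets 6, 5, 4, 2, 3 and 1) no neighbouring diets differed beyond the spread of the fish.

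Inositol-3-phosphate synthase 1 was also called in 0 of the 10 pairs by edgeR, with an unadjusted p under 0.05 in 3 of them and no call by DESeq2. Diet 5 was higher on average than Diet 2 by 1.53 ± 0.54 (edgeR adjusted p = 0.138) and than Diet 4 by 1.39 ± 0.53 (edgeR adjusted p = 0.176), where 1.37% and 1.78% of all contigs were called. Diet 6 against Diet 5 had -1.47 ± 0.53 (edgeR adjusted p = 0.147). Much of this rested on 1 fish, since without Diet 5 replicate 3 the values were 0.51 ± 0.35, 0.38 ± 0.33 and -0.45 ± 0.33. Without Diet 6 replicate 6 in its place, Diet 6 against Diet 5 had -1.81 ± 0.52 (edgeR adjusted p = 0.0495) and was called, where 2.60% of all contigs were called with every fish. The sign of its difference from Diet 3 also turned on single fish: Diet 5 had 0.91 ± 0.65 with every fish (edgeR adjusted p = 0.446) and -0.09 without Diet 5 replicate 3. In the order of the medians (Diets 5, 4, 2, 3, 6 and 1) none of the neighbouring pairs of test diets was called. For malate dehydrogenase the order was Diets 1, 3, 4, 5, 2 and 6, and of its neighbours only Diets 2 and 6 were told apart.

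**Figure D2:**
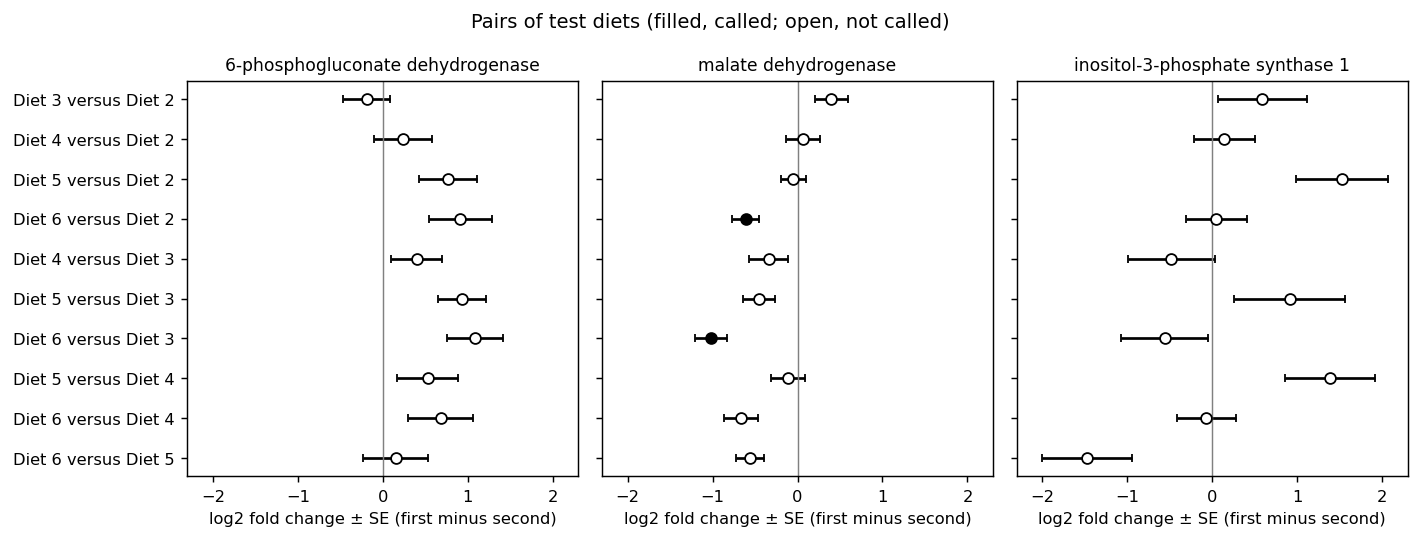
Log2 fold change ± SE (horizontal axis, first diet minus second) of the enzymes in the 10 pairs of test diets, from edgeR; filled points were called and open points were not. The filled points are malate dehydrogenase with Diet 6 against Diet 2 (-0.61) and against Diet 3 (-1.02).

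Scaling bears on every comparison with Diet 6. With library totals in place of TMM factors the median contig was itself higher with Diet 6 by 0.29 to 0.48 on the log2 scale, against shifts of at most 0.07 with TMM. On that scale malate dehydrogenase with Diet 6 had -0.65 ± 0.18 against Diet 3 (edgeR adjusted p = 0.0127) and -0.19 ± 0.16 against Diet 2 (edgeR adjusted p = 0.347), where the median contig moved by 0.35 and 0.48. 6-phosphogluconate dehydrogenase with Diet 6 had 1.47 ± 0.34 against Diet 3 (edgeR adjusted p = 0.00603) on the same scale and was then called. Of the 6 liver markers, 4, 2, 1 and 2 were called lower with Diet 6 against Diets 2, 3, 4 and 5, and none higher. Of all contigs, 1.16%, 0.292%, 0.0803% and 1.37% were called lower in these pairs. Ceruloplasmin, a copper-carrying plasma protein made by the liver, was lower with Diet 6 in all 4 pairs of test diets, for example by -0.85 ± 0.18 against Diet 3 (edgeR adjusted p = 0.0379). The part of the liver markers in the difference of malate dehydrogenase was not tested.

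Within diets, the levels of 6-phosphogluconate dehydrogenase and inositol-3-phosphate synthase 1 rose and fell together across fish. After the mean of each diet was taken out of log2 CPM, Pearson's r over 53 fish was 0.56 and Spearman's rho 0.62, each with a permutation p of 1e-05, the smallest that 100000 permutations can give, and 3e-05 after adjustment over the 3 pairs of enzymes. The coefficient was positive within each of the 6 diets, from 0.24 in Diet 3 to 0.90 in Diets 4 and 5. Without the fish farthest from the median of 6-phosphogluconate dehydrogenase, Diet 1 replicate 7 and Diet 6 replicate 6, r over 51 fish was 0.56. The fish farthest for inositol-3-phosphate synthase 1, such as Diet 5 replicate 3, were kept in that value. By the L tag of the column names, a mark of 3 levels whose meaning is not stated, r was 0.54 over 17 fish, 0.23 over 18 fish and 0.78 over 18 fish. The relation over the 18 fish of the L tag with 0.23 had a permutation p of 0.67 after adjustment, so that it was not detected among those fish on their own. Diet 1 replicate 7, Diet 4 replicate 2, Diet 5 replicate 3 and Diet 6 replicate 6 were the highest fish of their diets for both enzymes. In these fish 6-phosphogluconate dehydrogenase had 1593, 1398, 1641 and 2635 CPM and inositol-3-phosphate synthase 1 had 172, 615, 2906 and 638 CPM.

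Malate dehydrogenase did not follow 6-phosphogluconate dehydrogenase, with r of -0.047 (permutation p = 0.73, adjusted 0.73) and rho of 0.016 (permutation p = 0.91, adjusted 0.91). Without the same 2 fish r was -0.068, and by L tag it was 0.35, -0.40 and 0.0020. Within single diets it ranged from -0.58 in Diet 4 to 0.72 in Diet 2, and was positive in 3 of 6. Before the diet means were taken out r was -0.36. With inositol-3-phosphate synthase 1 the r of malate dehydrogenase was 0.26 (permutation p = 0.09, adjusted 0.13) and rho was 0.29 (permutation p = 0.049, adjusted 0.073). Without Diet 3 replicate 1 and Diet 4 replicate 2 r was 0.26, and by L tag it was 0.73, 0.13 and 0.14. By diet it ranged from -0.34 in Diet 4 to 0.95 in Diet 3. In Diet 3, replicates 1 and 2 were highest for both enzymes, and both carried the same T tag of the column names, a mark shared by 3 fish whose meaning is not stated. Differences between the T tags of a diet made up 44.3% of the variance within diets for malate dehydrogenase. The share was 34.5% for inositol-3-phosphate synthase 1 and was smallest for 6-phosphogluconate dehydrogenase. Tags that grouped the fish at random would also give a share, from the spread between fish alone. The size of that share was not computed, and differences between T tags were not tested. The shares above therefore do not show an effect of the tag.

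**Figure D3:**
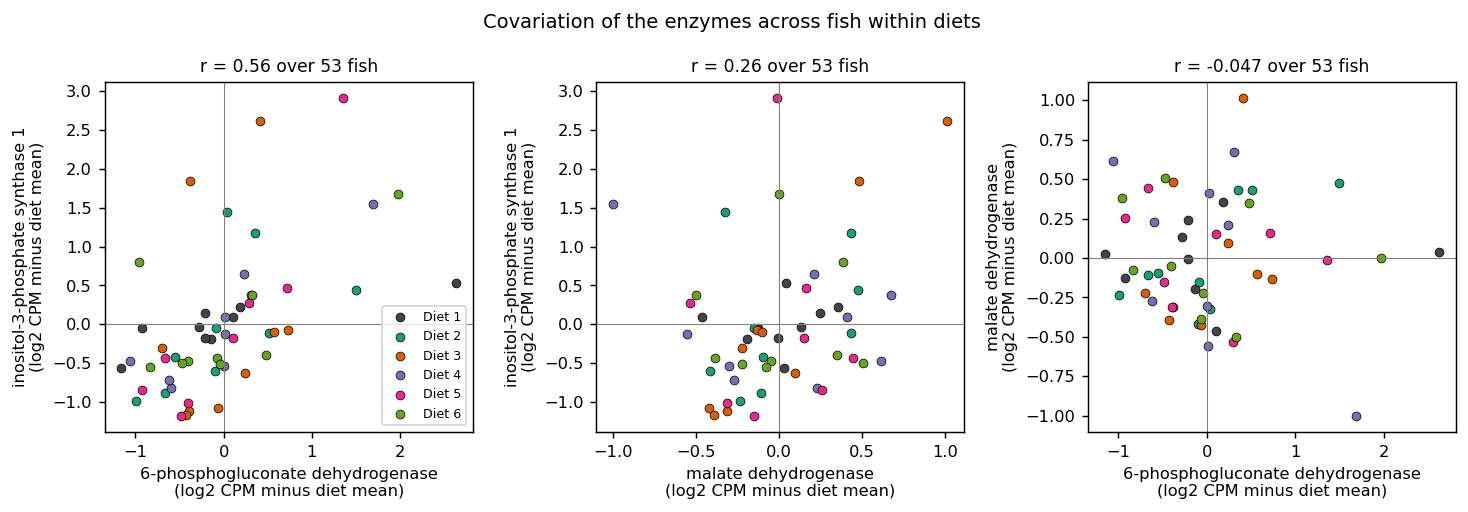
Each point is 1 of 53 fish, coloured by diet, and both axes give log2 CPM minus the mean of the diet. The points of 6-phosphogluconate dehydrogenase and inositol-3-phosphate synthase 1 lie along a rising band (r = 0.56), whereas those of malate dehydrogenase form no band with 6-phosphogluconate dehydrogenase (r = -0.047).

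Other contigs of the pathways were taken from the study's lists of changed contigs, so their changes against Diet 1 are no independent evidence. The same fish of the test diets enter the pairs of test diets, so calls of these contigs there are not independent of that choice either. In the pentose phosphate list, all 5 contigs were tested, and over the 10 pairs of test diets the single call was sedoheptulokinase, which phosphorylates sedoheptulose to an intermediate of the pathway. It was higher with Diet 6 than with Diet 3 by 0.64 ± 0.14 (edgeR adjusted p = 0.0486), where 0.201% of all contigs were called higher. The median of the list in this pair was -0.38 and that of all contigs 0.012. The share of all contigs that would pass as correlated was not counted for any enzyme. Across fish 6-phosphogluconate dehydrogenase had r above 0.5 with 6.12% of 9547 contigs, and it followed 3 of these 5 after adjustment over 180 relations. They were sedoheptulokinase (r = 0.54, rho = 0.57, permutation p = 4e-05 and 3e-05, adjusted p = 0.00038 and 0.00034), the abundant transketolase-like contig (r = 0.52, rho = 0.56, permutation p = 9e-05 and 6e-05, adjusted p = 0.00070 and 0.00057) and transketolase (r = 0.40, permutation p = 0.0013, adjusted p = 0.0074). Transketolase carries out the carbon transfers of the non-oxidative branch. For the contig named transketolase rho was 0.27 (permutation p = 0.058, adjusted p = 0.18), and r without the 2 fish farthest from the median was also 0.27. Transaldolase had r of -0.21 and gluconokinase, which makes 6-phosphogluconate, had r of 0.30, neither of which passed. The contig named transketolase had a higher r with malate dehydrogenase (0.70) and with inositol-3-phosphate synthase 1 (0.60). Gluconokinase had r of 0.53 with inositol-3-phosphate synthase 1 (adjusted permutation p = 0.0015). The transketolase-like contig had a lower r with both other enzymes. Sedoheptulokinase had r of 0.14 with inositol-3-phosphate synthase 1 and ran against malate dehydrogenase (r = -0.44, rho = -0.39, adjusted permutation p = 0.0067 and 0.031).

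Of 8 contigs of malate, citrate and gluconeogenesis, Diet 6 had 2 called lower against Diet 2, 1 against Diet 3 and 1 against Diet 5, and none higher. The shares of all contigs called lower in these pairs were 1.16%, 0.292% and 1.37%. The 8 contigs were listed as changed beforehand, so these shares are no even baseline for them. The medians of the list were -0.16, -0.66 and -0.30, against 0.041, 0.012 and 0.024 for all contigs. Fructose-1,6-bisphosphatase 1-like, a committed enzyme of gluconeogenesis, was the contig called in all of these: it was lower with Diet 6 by -1.08 ± 0.23 against Diet 2 (edgeR adjusted p = 0.0118), by -1.33 ± 0.27 against Diet 3 (edgeR adjusted p = 0.0310) and by -0.87 ± 0.23 against Diet 5 (edgeR adjusted p = 0.0407). The paper already lists fructose-1,6-bisphosphatase 1 as changed with Diet 6 against Diet 1, and the same Diet 6 fish enter these pairs. The mitochondrial phosphoenolpyruvate carboxykinase was lower with Diet 6 than with Diet 2 by -0.62 ± 0.13 (edgeR adjusted p = 0.00805). Across fish, malate dehydrogenase had r above 0.5 with 0.524% of 9547 contigs, and it followed 3 of the 8 contigs of this list. These were fructose-1,6-bisphosphatase 1-like (r = 0.66, rho = 0.60, permutation p = 2e-05 for each, adjusted p = 0.00022 and 0.00024), mitochondrial glutamate dehydrogenase (r = 0.64, rho = 0.66, permutation p = 1e-05 for each, adjusted p = 0.00014 for each) and 2-oxoglutarate dehydrogenase-like (r = 0.54, rho = 0.53, permutation p = 2e-05 and 0.00013, adjusted p = 0.00022 and 0.0011). Glutamate dehydrogenase feeds the carbon of amino acids into the citric acid cycle. Without the 2 fish farthest from the median of malate dehydrogenase these r were 0.59, 0.62 and 0.49. The phosphoenolpyruvate carboxykinase contig had r of 0.086 with malate dehydrogenase.

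The 12 inositol contigs gave 4 calls between Diets 6 and 5, 2 in each direction, where 1.24% of all contigs were called higher and 1.37% lower, and at most 1 call in each of the other pairs of Diets 5 and 6 with a test diet. The sodium/myo-inositol cotransporter-like contig, which takes inositol up from outside the cell, was higher with Diet 6 than with Diet 5 by 2.72 ± 0.64 (edgeR adjusted p = 0.0211). Across fish this transporter ran against inositol-3-phosphate synthase 1, with r of -0.40 and rho of -0.46 (permutation p = 0.0026 and 0.00096, adjusted p = 0.013 and 0.0064), and leaving out the 2 most distant fish gave r of -0.39. With T tag means taken out in place of diet means r was -0.29. Of the other 11 inositol contigs, myotubularin-related protein 2, a phosphoinositide phosphatase, followed inositol-3-phosphate synthase 1 (r = 0.43, rho = 0.46, permutation p = 0.0015 and 0.00088, adjusted p = 0.0082 and 0.0061). It was not particular to that enzyme. Myotubularin-related proteins 2 and 4 had r of 0.62 and 0.58 with 6-phosphogluconate dehydrogenase (adjusted permutation p = 0.00014 and 0.00022), while the transporter had -0.11.

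The list that inositol-3-phosphate synthase 1 followed most widely was that of lipid synthesis, with 7 of 11 contigs past adjustment, all positive, and a median r of 0.63. For 6-phosphogluconate dehydrogenase 6 of the 11 passed, all positive, with a median r of 0.40, and for malate dehydrogenase 3 passed with a median r of 0.18. The share of all contigs that would pass was not counted. Of 9547 contigs, 2.17% had r above 0.5 with inositol-3-phosphate synthase 1, 6.12% with 6-phosphogluconate dehydrogenase and 0.524% with malate dehydrogenase. Fatty acid synthase had r of 0.87 with inositol-3-phosphate synthase 1 and 0.53 with 6-phosphogluconate dehydrogenase. The acyl-CoA desaturase-like contig, whose enzyme puts a double bond into saturated fatty acids, had 0.86 and 0.72. Lanosterol 14-alpha demethylase, of sterol synthesis, had 0.78 and 0.57, and 3-hydroxy-3-methylglutaryl-Coenzyme A reductase, its rate-limiting enzyme, had 0.68 and 0.40. Adjusted permutation p for these 8 values of r lay between 0.00014 and 0.027, and without the 2 fish farthest from the median of each enzyme r lay between 0.43 and 0.85. With 6-phosphogluconate dehydrogenase the relation was not even over the L tags. In L tag 2 r was 0.31, 0.57, 0.072 and -0.061 in the order given, against 0.50 to 0.80 in L tags 1 and 3. For inositol-3-phosphate synthase 1 the values in L tag 2 were 0.90, 0.80, 0.81 and 0.73. Over the 10 pairs of test diets the reductase was called lower with Diet 6 against Diets 2, 3 and 5, by -1.30 ± 0.25, -1.14 ± 0.26 and -1.86 ± 0.34 (edgeR adjusted p = 0.00586, 0.0496 and 0.00402). Of all contigs, 1.16%, 0.292% and 1.37% were called lower in these pairs, in which neither 6-phosphogluconate dehydrogenase nor inositol-3-phosphate synthase 1 was called. The list also had 1 contig called lower with Diet 5 against Diet 3 and 1 against Diet 4, where 1.91% and 0.807% of all contigs were.

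**Figure D4:**
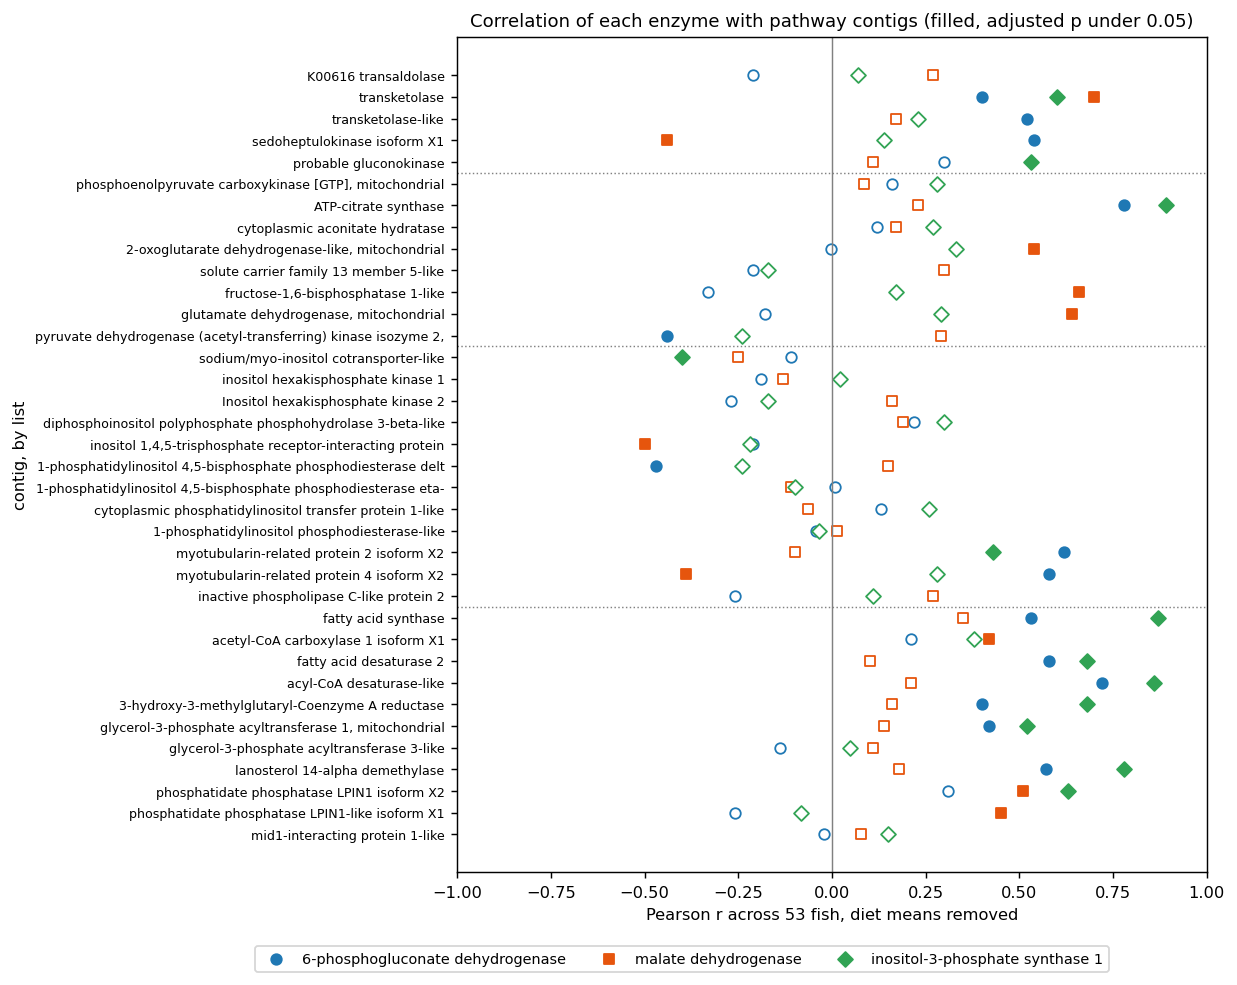
Pearson r across 53 fish, with diet means removed, of each enzyme with the contigs of the pentose phosphate, malate and gluconeogenesis, inositol and lipid synthesis lists (top to bottom, divided by dotted lines); filled symbols have an adjusted permutation p under 0.05. Inositol-3-phosphate synthase 1 lies far to the right for fatty acid synthase (0.87) and ATP-citrate synthase (0.89), and malate dehydrogenase for fructose-1,6-bisphosphatase 1-like (0.66).

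Markers of other cell types did not pass for any enzyme in this family of relations: none of the 7 exocrine, 2 endocrine, 5 leukocyte and 1 blood contigs had an adjusted p under 0.05. The r of the exocrine markers was between 0.15 and 0.22 with 6-phosphogluconate dehydrogenase, between -0.16 and -0.068 with malate dehydrogenase and between -0.037 and 0.091 with inositol-3-phosphate synthase 1. Among 6 liver markers 3 passed with 6-phosphogluconate dehydrogenase, 1 with malate dehydrogenase and 3 with inositol-3-phosphate synthase 1. Haptoglobin-like, an acute-phase plasma protein, had r of 0.53 and 0.63 with 6-phosphogluconate dehydrogenase and inositol-3-phosphate synthase 1. Glucose transporter member 2 ran the other way, with r of -0.58 and -0.38, as did heparin cofactor 2 with 6-phosphogluconate dehydrogenase (r = -0.40). By rank neither passed with 6-phosphogluconate dehydrogenase, with rho of -0.36 and -0.30 (adjusted permutation p = 0.055 and 0.12), whereas haptoglobin-like did (rho = 0.63). Without the 2 farthest fish r of heparin cofactor 2 was -0.23. Ceruloplasmin had r of 0.38 with inositol-3-phosphate synthase 1. Alpha-2-HS-glycoprotein-like had r of 0.49 with malate dehydrogenase. 1 of the 3 sex markers passed with malate dehydrogenase, at r of -0.37. What part these markers had in the relations of the enzymes was not tested.

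Each enzyme had its own set of nearest contigs. Among 9547 other contigs whose mean reached 5 counts, 584 (6.12%) had r above 0.5 with 6-phosphogluconate dehydrogenase and 303 had r below -0.5. These numbers were 207 (2.17%) and 44 for inositol-3-phosphate synthase 1, and 50 (0.524%) and 31 for malate dehydrogenase. Among the 974 of these contigs that carry a name in the study's lists, the highest r were picked out, so they are given as a description over the same 53 fish and with no test. All points share the scaling of their library. Since the names come from lists of contigs changed in these fish, calls given below for the nearest contigs are no independent evidence.

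Nearest to 6-phosphogluconate dehydrogenase were proteasome subunit alpha type-1 (r = 0.88), of the core particle that degrades proteins, protein pelota homolog (r = 0.87), which rescues stalled ribosomes, and a phospholipid hydroperoxide glutathione peroxidase (r = 0.86), which reduces lipid peroxides. Thimet oligopeptidase (r = 0.86), a peptidase, and ubiquitin carboxyl-terminal hydrolase 14 (r = 0.85), which trims ubiquitin at the proteasome, followed. Without the 2 farthest fish these r were 0.83, 0.79, 0.78, 0.78 and 0.78. They were high in the same control fish: in Diet 1 replicate 7 thimet oligopeptidase had 82.2 CPM, against 5.41 to 12.8 in the other 8 fish of Diet 1, and the proteasome subunit had 149 CPM, against 49.2 to 87.1. Among the pairs of test diets the proteasome subunit was higher with Diet 5 than with Diet 3 by 0.73 ± 0.16 (edgeR adjusted p = 0.00764), and the hydrolase by 1.24 ± 0.19 (edgeR adjusted p = 0.000827). Lowest were transcription intermediary factor 1-alpha-like (r = -0.75), netrin-4 (r = -0.71) and patatin-like phospholipase domain-containing protein 7 (r = -0.69).

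Nearest to malate dehydrogenase were an ATP synthase F(0) complex subunit C2 contig (r = 0.77), of the mitochondrial ATP synthase, protein disulfide-isomerase (r = 0.70), which folds secreted proteins, transketolase (r = 0.70), fructose-1,6-bisphosphatase 1-like (r = 0.66) and glutamate dehydrogenase (r = 0.64). The ATP synthase contig was lower with Diet 6 than with Diet 3 by -0.61 ± 0.14 (edgeR adjusted p = 0.0486), in the same pair as malate dehydrogenase. Lowest were the liver-isoform-like contig of carnitine O-palmitoyltransferase 1 (r = -0.61), which admits fatty acids to the mitochondrion for oxidation, clusterin (r = -0.60) and phospholipase D4 (r = -0.58). Clusterin, an extracellular chaperone, was higher with Diet 6 than with Diet 3 by 2.67 ± 0.58 (edgeR adjusted p = 0.0461) and than with Diet 2 by 2.39 ± 0.45 (edgeR adjusted p = 0.00485).

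Nearest to inositol-3-phosphate synthase 1 were acetoacetyl-CoA synthetase (r = 0.90), which activates acetoacetate for lipid synthesis, ATP-citrate synthase (r = 0.89), which makes cytosolic acetyl-CoA from citrate, fatty acid synthase (r = 0.87), the acyl-CoA desaturase-like contig (r = 0.86) and 3-beta-hydroxysteroid-Delta(8),Delta(7)-isomerase (r = 0.79), of sterol synthesis. Without the 2 farthest fish these r were 0.84, 0.85, 0.81, 0.85 and 0.73. The highest fish of Diet 5 was high in all of them: in replicate 3 fatty acid synthase had 4710 CPM where the other 7 fish of that diet had at most 458, ATP-citrate synthase had 1702 against at most 235, and acetoacetyl-CoA synthetase had 297 against at most 36.1. Lowest were ankyrin repeat and SOCS box protein 5-like (r = -0.64), leucine-rich repeat transmembrane protein FLRT3-like (r = -0.60) and hormonally up-regulated neu tumor-associated kinase (r = -0.55).

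**Figure D5:**
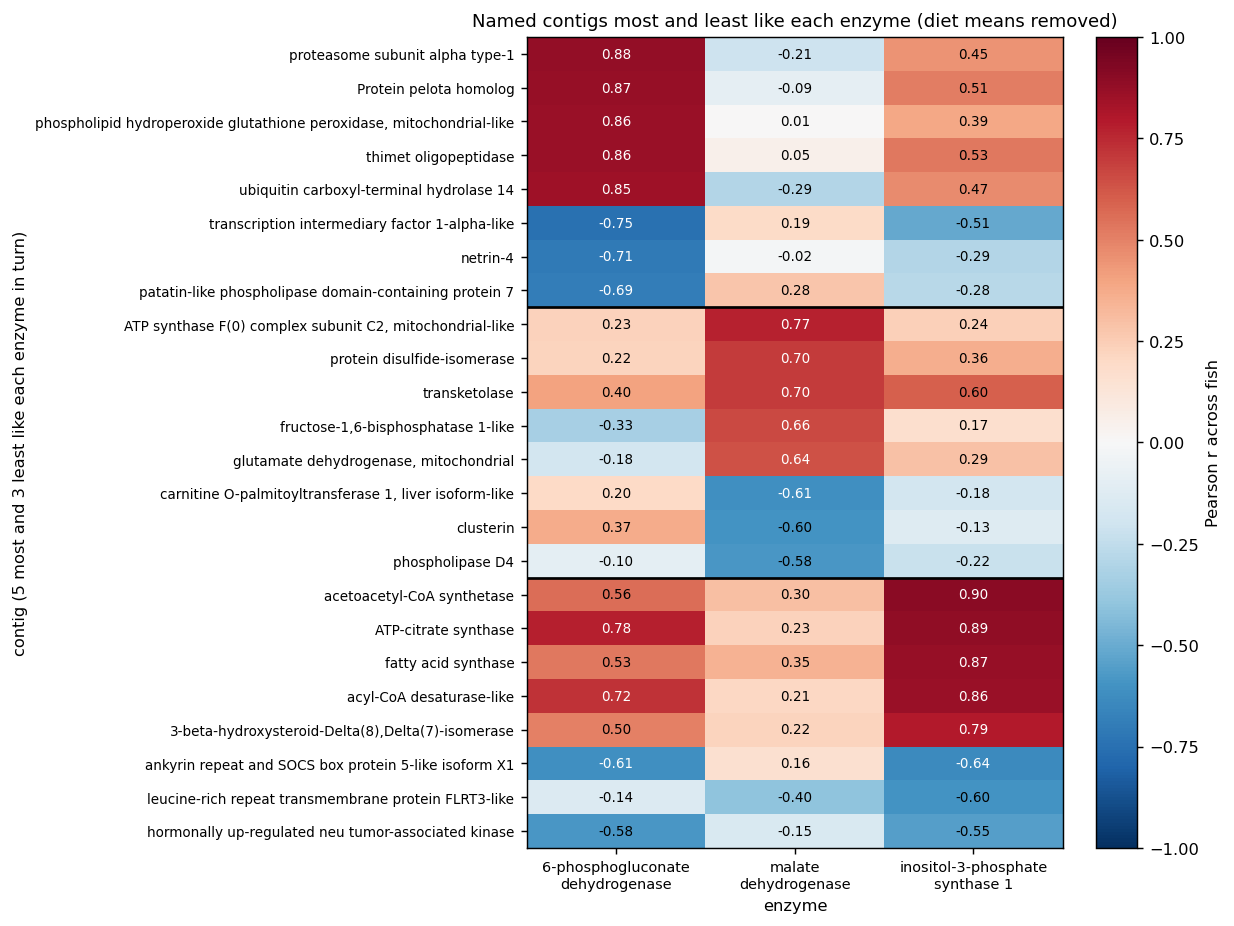
Pearson r across 53 fish with diet means removed (colour and number) of the 5 named contigs most like and the 3 least like each enzyme, in 3 blocks from top to bottom, with all 3 enzymes. The first 5 contigs of the top block are high for 6-phosphogluconate dehydrogenase (0.85 to 0.88) and near 0 or below for malate dehydrogenase (-0.29 to 0.05). The first 5 contigs of the bottom block are high for inositol-3-phosphate synthase 1 (0.79 to 0.90) and intermediate for 6-phosphogluconate dehydrogenase (0.50 to 0.78).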

How the data were processed

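Livers of 54 juvenile white bass were sequenced as poly(A) directional libraries. Per the labels, the authors trimmed reads with Trim Galore 0.6.5 and cutadapt 2.7, aligned them with Bowtie2 2.3.4.1 to a white bass transcriptome reduced for redundancy, and deposited the estimated counts per contig of eXpress 1.5.1, which are whole numbers. Reads of near-identical copies cannot be told apart in them. Contig names come from the study's lists of changed contigs, themselves made from these libraries with DESeq2 1.24.0. A further contig that the rule for named contigs takes is not reported here.

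Counts were tested per pair of diets with edgeR 4.0.16 in R 4.3.3 (TMM scaling, quasi-likelihood test), keeping those contigs whose mean reached 5 counts, with Benjamini-Hochberg adjustment over all contigs tested. A call needed an adjusted p under 0.05 and more than 1.5-fold. Correlations used log2 CPM (prior count 0.5), with 100000 two-sided permutations within diets. DESeq2 1.42.0, limma 3.58.1 (voom), other scalings and filters, and leaving out each fish were alternatives, and a DESeq2 fit without replacement of outlying counts was added after seeing the data. Depth was 5964761 to 17336918 counts in 53 libraries. The lowest chi-square per contig over 208 replicate pairs was 18, so no library was a repeat of another of its diet. Pairs of libraries from different diets were not checked in this way. Tested on simulated data (Diet 6 versus Diet 2, 9748 contigs), the fit recovered 25 of 50 contigs changed 2-fold, 35 of 50 at 3-fold and 45 of 50 at 4-fold, with 4 false calls. The enzymes and the lists were chosen with earlier results of these data known. Named contigs are the enzymes, list members, and the 5 named contigs with the highest and the 3 with the lowest r to each enzyme.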

Additional observations from a re-analysis of the deposited data

Results flagged for a closer look

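Single fish stood far from the others of their diet in 7 of 18 groups of an enzyme and a diet, by Dixon's criterion on CPM, which chance meets in about 1 in 20 groups. All 7 were high values. For 6-phosphogluconate dehydrogenase they were Diet 1 replicate 7 at 1593 CPM (next fish 292), Diet 2 replicate 4 at 1064 (next 539), Diet 4 replicate 2 at 1398 (next 537) and Diet 6 replicate 6 at 2635 (next 933). For inositol-3-phosphate synthase 1 they were Diet 4 replicate 2 at 615 CPM (next 329), Diet 5 replicate 3 at 2906 (next 535) and Diet 6 replicate 6 at 638 (next 347). On the log2 scale 4 of the 7 remained past the criterion: 6-phosphogluconate dehydrogenase in Diet 1 replicate 7, Diet 4 replicate 2 and Diet 6 replicate 6, and inositol-3-phosphate synthase 1 in Diet 5 replicate 3. Malate dehydrogenase had none, and in Diet 4 replicate 2 it was the lowest of its diet at 219 CPM.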

How the results depend on the processing

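Over the 10 pairs of test diets, 6-phosphogluconate dehydrogenase went from 0 calls to 2 with DESeq2, 2 with DESeq2 without replacement of outlying counts, 2 with library totals alone, and 1 each with DESeq2 size factors, filterByExpr and counts summed per T tag. Malate dehydrogenase went from 2 calls to 1 with DESeq2 size factors, 1 with library totals, 1 with no filter on low counts and 0 with T tag sums. Inositol-3-phosphate synthase 1 had 0 calls in all 14 alternatives. Leaving out 1 fish gave between 0 and 1 calls for 6-phosphogluconate dehydrogenase, 0 and 3 for malate dehydrogenase, and 0 and 1 for inositol-3-phosphate synthase 1. Calls over all contigs went from 1211 to 2089 with DESeq2, 2093 without its replacement, 5437 with library totals, 276 with T tag sums, and 962 to 1332 without 1 fish. Against Diet 1, over the contrasts that did not serve to pick an enzyme, 6-phosphogluconate dehydrogenase went from 0 calls to 1 each with library totals, the replicate block and voom, and to between 0 and 2 without 1 fish. Malate dehydrogenase went from 1 to 0 with library totals and 0 with T tag sums, and to between 0 and 1 without 1 fish. Inositol-3-phosphate synthase 1 had 0 in all alternatives, and 0 without any 1 fish. Calls over all contigs went from 601 to 1069 with DESeq2, 1046 without its replacement, 2401 with library totals, 360 with T tag sums, 928 by adjusted p alone, and 371 to 1094 without 1 fish (371 without Diet 1 replicate 9). The cause of these changes was not tested, beyond the fewer samples of the sums and the lower threshold of adjusted p alone.

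Some differences that were not called changed sign. With DESeq2 inositol-3-phosphate synthase 1 had 0.19 for Diet 4, -0.12 for Diet 5 and 0.12 for Diet 6 against Diet 3, where DESeq2 replaced an outlying count of 1 fish, and it kept the sign without that replacement. With library totals it had 0.18 for Diet 6 against Diet 4, and 0.03 with T tag sums, and with voom 0.00 for Diet 4 against Diet 3. Malate dehydrogenase had 0.01 for Diet 5 against Diet 2 with library totals. Without 1 fish, 6-phosphogluconate dehydrogenase had -0.10 to 1.03 (Diet 2 against 1), -0.09 to 0.83 (3 against 1), -0.29 to 0.12 (3 against 2), -0.14 to 0.52 (4 against 2) and -0.29 to 0.43 (6 against 5). Malate dehydrogenase had -0.02 to 0.16 (4 against 2) and -0.12 to 0.02 (5 against 2). Inositol-3-phosphate synthase 1 had -0.05 to 0.85 (3 against 2), -0.19 to 0.38 (4 against 2), -0.80 to 0.16 (4 against 3), -0.09 to 1.55 (5 against 3), -0.30 to 0.29 (6 against 2), -0.89 to 0.08 (6 against 3) and -0.40 to 0.24 (6 against 4).

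The correlation of 6-phosphogluconate dehydrogenase and inositol-3-phosphate synthase 1 was 0.23 in 1 L tag and 0.52 to 0.61 without 1 fish. That of 6-phosphogluconate and malate dehydrogenase was -0.36 with no centring (permutation p adjusted 0.013), 0.016 as rho, 0.35 and 0.0020 in 2 L tags, and -0.11 to 0.089 without 1 fish. That of malate dehydrogenase and inositol-3-phosphate synthase 1 was 0.11 to 0.40 without 1 fish.

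Fish with the same replicate number were slightly more alike than others, with a median correlation of deviations of 0.073 against -0.0042. Of 130 same-numbered pairs, 60 (46.2%) had a correlation over 0.1. In 55 of 260 choices a fish went best with its own number. The number expected without pairing was not computed, so these values do not decide whether replicate numbers pair the fish. With the replicate block calls over all contigs were 822 over the pairs of test diets and 840 against Diet 1. With the block, malate dehydrogenase was not called for Diet 6 against Diet 3 (-0.97 ± 0.20, edgeR adjusted p = 0.0954) and was called for Diet 6 against Diet 5 (-0.61 ± 0.12, edgeR adjusted p = 0.0258), so that its count of 2 holds another pair, and 6-phosphogluconate dehydrogenase was called for Diet 5 against Diet 1 (1.63 ± 0.28, edgeR adjusted p = 0.0039). With the block Diet 6 against Diet 5 was -0.06 for 6-phosphogluconate dehydrogenase, malate dehydrogenase had 0.01 for Diet 5 against Diet 2 and 0.03 against Diet 4, and inositol-3-phosphate synthase 1 had 0.03 for Diet 4 against Diet 3. The lowest count of any enzyme was 665, and what kept differences of the enzymes from a call was not tested.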
